A study of Rattus norvegicus with 29 samples.

Results

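The genes described here are 9 genes of the drug-sensing system of the rat liver: the nuclear receptors CAR (Nr1i3) and PXR (Nr1i2), their shared partner RXR-alpha (Rxra), the cytochrome P450 genes Cyp2b1, Cyp2b2, Cyp3a9 and Cyp3a18, the P450 reductase Por and the heme-synthesis gene Alas1. They were chosen by name, with earlier results of these data known. Each row of the array table whose only annotated gene symbol is one of the 9 was taken. That gave 8 rows of 27342, 1 for each gene but Alas1, which is not analysed here. Liver RNA came from 29 male Sprague-Dawley rats, and RNA of each rat's left liver lobe was put on 1 array. The age given is 6 to 7 weeks, the same for the groups of day 8 and day 29, so it need not be the age at sampling. The rats were dosed once a day by oral gavage with PMCol (2,2,5,7,8-pentamethyl-6-chromanol), a chromanol that carries the ring of vitamin E without its long side chain, or with the vehicle, 1% methylcellulose in water. After 7 doses, on day 8, there were 6 vehicle animals and 6 animals given 2000 mg/kg. After 28 doses, on day 29, there were 6 vehicle animals, 6 given 200 mg/kg and 5 given 2000 mg/kg. The labels describe the arrays of a group as biological replicates. No females, other strains or isolated cells were studied, and animals given 200 mg/kg and killed on day 8 were not analysed here.

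CAR and PXR are nuclear receptors that sense drugs and other foreign chemicals. CAR is held in the cytoplasm until an activator releases it, whereas PXR binds its ligands directly. Each pairs with RXR-alpha on DNA and switches on genes for oxidation, conjugation and export. In rodent liver the CYP2B genes are the classical readout of CAR and the inducible CYP3A genes that of PXR, with overlap between both receptors. Every microsomal P450 needs electrons from Por and a heme group, the first step of whose synthesis in liver is made by the Alas1 enzyme.

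The values are log2 signals, and in the table each row has its median over the 29 animals set to 0, so they tell how animals differ for a gene and not how strongly it is expressed. One gene's value cannot be set against another's. Changes below are log2 differences ± SE from limma, fitted with the 29 animals together. Adjusted p-values are Benjamini-Hochberg values over the 27342 rows, with a threshold of 0.05. The number of arrays limits the precision. Vehicle day 29 replicate 1 stood furthest from its group, with a root mean square deviation of 0.215 over all rows, against 0.169 for the next animal and a median of 0.122. These are whole-liver samples, in which fewer cells of a type and less RNA per cell cannot be told apart.

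At 2000 mg/kg on day 8, Cyp2b1, Cyp2b2 and Por rose, and Nr1i2, Rxra, Cyp3a9 and Cyp3a18 fell, so that 7 of 8 genes passed the test where 18.6% of all rows did (9.32% higher and 9.32% lower). On day 29 the same dose raised Cyp2b1, Cyp2b2, Por and Nr1i3 and lowered Nr1i2, Rxra and Cyp3a9, again 7 of 8, against 21.6% of all rows (12.1% higher and 9.55% lower). At 200 mg/kg on day 29, Cyp2b1, Cyp2b2, Por and Nr1i3 rose and 0 of 8 fell, a total of 4 against 2.78% of all rows (1.37% higher and 1.42% lower). Between the doses on day 29, Nr1i2, Rxra and Cyp3a18 were lower at 2000 mg/kg, 3 of 8 against 9.89% of all rows (6.05% higher and 3.84% lower). The groups' ranges did not overlap for 5 genes at 2000 mg/kg on day 8 (11.0% of all rows), 5 on day 29 (11.4%), 2 at 200 mg/kg (1.51%) and 2 between the doses (6.12%). Between the vehicle groups of day 29 and day 8 they did not overlap for 0 genes (1.25% of all rows). The comparisons on day 29 share their vehicle or high-dose animals and are not independent of each other. The 8 genes were chosen with earlier results of these data known. Their counts beside the shares of all rows are therefore a description.

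**Figure D1:**
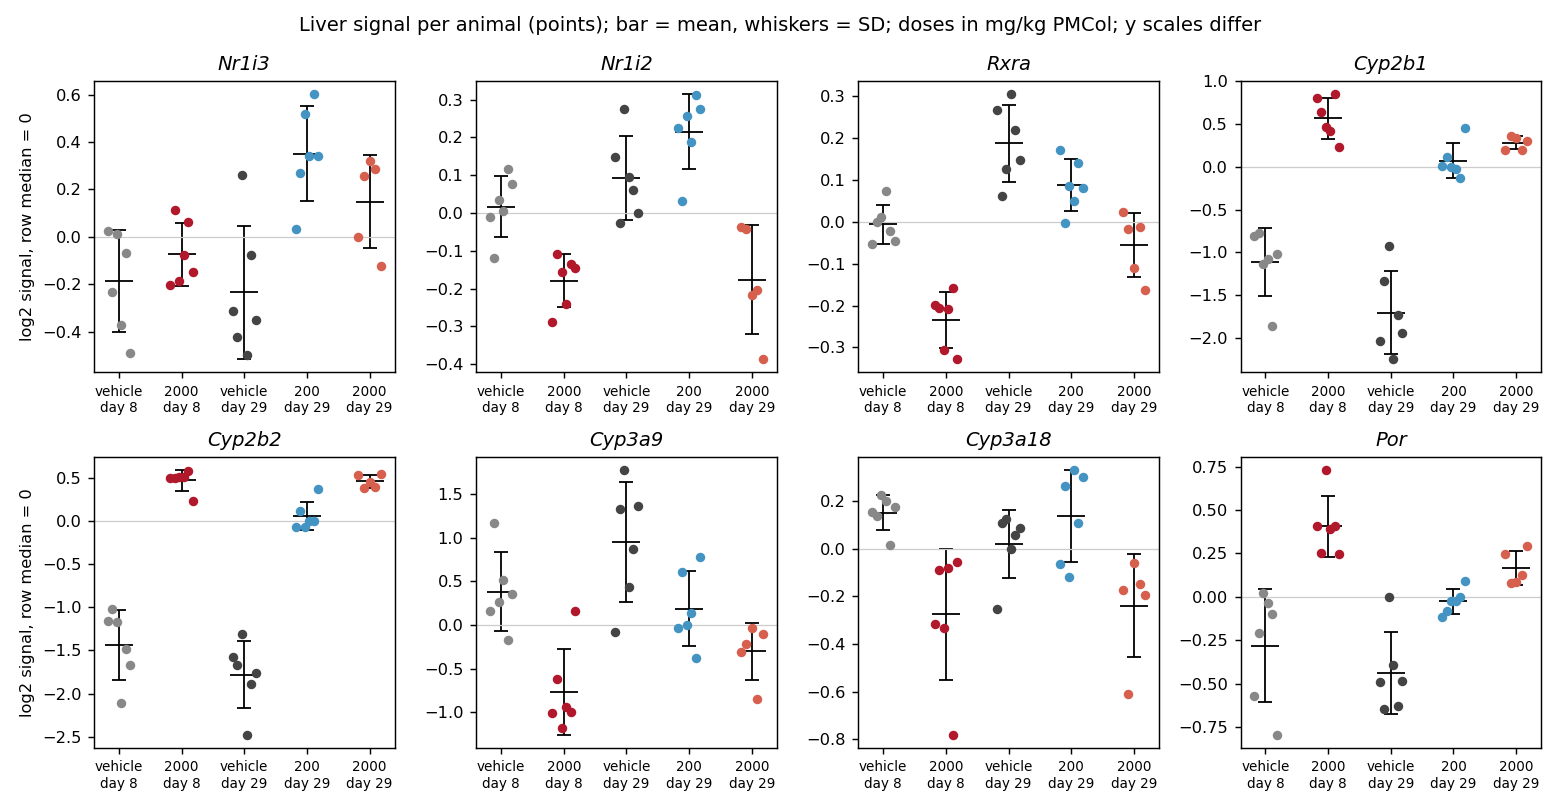
Log2 signal of each animal (points) for the 8 genes, centred on the row's median over 29 animals, in the 5 groups; the bar is the group mean and the whiskers the SD, and the y scales differ. Cyp2b1 and Cyp2b2 lie at or below -0.78 in every vehicle animal and at or above -0.13 in every treated animal.

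**Figure D2:**
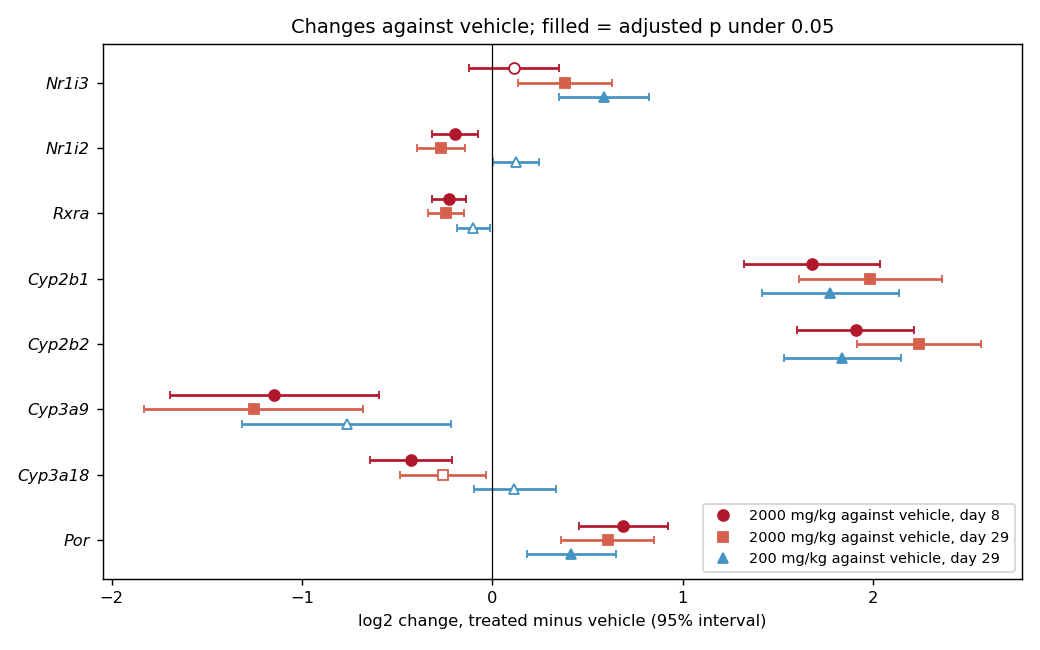
Log2 change of the 8 genes against the vehicle group of the same day with 95% intervals; filled symbols passed an adjusted p of 0.05. Cyp2b1, Cyp2b2 and Por lie to the right at both doses, Cyp3a9 lies to the left, and Nr1i2 is left of 0 at 2000 mg/kg and right of 0 at 200 mg/kg, where it did not pass.

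Of the receptors, Nr1i3, which encodes CAR, rose on day 29 at both doses. It had values of -0.49, -0.15 and 0.03 in vehicle animals on day 8 (lowest, median, highest) and -0.20, -0.11 and 0.11 after 2000 mg/kg. On day 29 the vehicle animals had -0.50, -0.33 and 0.26, and the animals given 200 mg/kg had 0.04, 0.34 and 0.60. The animals given 2000 mg/kg had 0.00, 0.25, 0.32, 0.29 and -0.12. On day 8 the ranges overlapped and the highest animals were treated ones, whereas on day 29 most treated animals lay above all vehicle animals but the highest, and the ranges overlapped. The change was 0.12 ± 0.12 on day 8 (adjusted p = 0.573). On day 29 Nr1i3 rose by 0.58 ± 0.12 at 200 mg/kg (adjusted p = 0.00405) and by 0.38 ± 0.12 at 2000 mg/kg (adjusted p = 0.0228). The difference between the doses was -0.20 with a 95% interval from -0.45 to 0.05 (adjusted p = 0.343), so an order of the doses was not shown. The call at 2000 mg/kg was lost without vehicle day 29 replicate 4 or without any one of replicates 2, 3 and 4 of the treated group (adjusted p up to 0.0635), after quantile normalization (0.0518) and in a fit of only the compared groups (0.0674).

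Nr1i2, which encodes PXR, moved the other way at the high dose. Its values in vehicle animals were -0.12, 0.02 and 0.12 on day 8 and -0.03, 0.08 and 0.28 on day 29. At the high dose they were -0.29, -0.15 and -0.11 on day 8, and -0.04, -0.04, -0.22, -0.20 and -0.39 on day 29, and after 200 mg/kg they were 0.03, 0.24 and 0.31. All 5 high-dose animals on day 29 lay below every vehicle animal and below every low-dose animal, and on day 8 the ranges overlapped only at their edges. Nr1i2 fell by 0.20 ± 0.06 on day 8 (adjusted p = 0.0175) and by 0.27 ± 0.06 on day 29 (adjusted p = 0.00176). At 200 mg/kg the change was 0.12 ± 0.06 (adjusted p = 0.354). The doses differed by -0.39 ± 0.06 (adjusted p = 7.92e-05). These are small changes, a level 0.873 times and 0.83 times that of vehicle at the high dose on day 8 and day 29.

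Rxra, the partner that both receptors need to bind DNA, fell at the high dose by about as much as Nr1i2. Vehicle animals had -0.05, -0.01 and 0.07 on day 8 and 0.06, 0.18 and 0.30 on day 29. High-dose values were -0.33, -0.21 and -0.16 on day 8 and 0.02, -0.02, -0.11, -0.01 and -0.16 on day 29, and after 200 mg/kg they were -0.00, 0.08 and 0.17. Every high-dose animal lay below every vehicle animal of its day, but the high-dose animals of day 29 overlapped the vehicle animals of day 8. The fall was 0.23 ± 0.04 on day 8 (adjusted p = 0.000276) and 0.24 ± 0.05 on day 29 (adjusted p = 0.000192). At 200 mg/kg the change was -0.10 ± 0.04 (adjusted p = 0.276). The doses differed by -0.14 ± 0.05 (adjusted p = 0.0409), a call that 8 of 11 fits without 1 animal lost, all but those without low-dose replicate 2 or 4 or high-dose replicate 1 (adjusted p up to 0.151). It was also lost in a fit of only these groups (0.0936) and with array quality weights (0.0827). Rxra was the only one of the 8 genes to differ between the vehicle groups, 0.19 ± 0.04 higher on day 29 than on day 8 (adjusted p = 0.0171, where 2.73% of all rows passed and 0.962% were higher), and in a fit of the vehicle animals alone this call was lost (adjusted p = 0.0698).

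The CYP2B genes gave the largest changes of the 8. Cyp2b1 and Cyp2b2 are neighbouring genes on rat chromosome 1, encode closely related phenobarbital-inducible P450 enzymes, and may share probes on the array. The bases around their start sites are shown because they let the likeness of the pair be seen; they come from RefSeq on build GRCr8, on the + strand, 5′ to 3′, and the capitals mark the longest run that is the same in both. The Cyp2b1 window is chr1:90645869-90646118 and the part of the Cyp2b2 window that aligns with it is chr1:90722031-90722263.
Cyp2b1: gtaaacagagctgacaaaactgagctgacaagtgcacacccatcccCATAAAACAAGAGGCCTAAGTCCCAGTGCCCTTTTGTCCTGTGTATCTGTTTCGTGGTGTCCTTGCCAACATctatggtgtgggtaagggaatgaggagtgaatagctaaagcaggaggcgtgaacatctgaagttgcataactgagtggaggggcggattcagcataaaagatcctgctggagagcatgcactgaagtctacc
Cyp2b2: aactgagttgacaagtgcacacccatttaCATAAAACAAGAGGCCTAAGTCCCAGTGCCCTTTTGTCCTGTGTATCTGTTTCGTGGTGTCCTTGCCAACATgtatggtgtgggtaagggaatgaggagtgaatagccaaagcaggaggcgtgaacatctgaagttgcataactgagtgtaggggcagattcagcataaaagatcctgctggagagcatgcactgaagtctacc
Of 233 aligned bases, 225 are the same (96.6%), and the run in capitals is 72 bases long. The RefSeq gene record of each begins within the last bases of the printed stretch, before the start that the sequence table uses. The windows of 250 bases before that start hold neither AGGTCA nor AGTTCA on either strand, the 6-base elements that receptors of this family bind. This says only that those letters are not in these windows, and the phenobarbital-responsive enhancer known for these genes lies further upstream.

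Cyp2b1 had values of -1.86, -1.05 and -0.78 in vehicle animals on day 8 and -2.25, -1.84 and -0.93 on day 29. After 2000 mg/kg it had 0.23, 0.55 and 0.85 on day 8, and 0.20, 0.36, 0.34, 0.20 and 0.31 on day 29. After 200 mg/kg it had -0.13, 0.00 and 0.46. Every treated animal lay above every vehicle animal of either day, and the treated groups overlapped one another. Cyp2b1 rose by 1.68 ± 0.17 at 2000 mg/kg on day 8, which is 3.21-fold (95% interval 2.50 to 4.11, adjusted p = 4.09e-08). On day 29 it rose 3.96-fold at 2000 mg/kg (1.99 ± 0.18 on the log2 scale, adjusted p = 4.63e-09) and 3.43-fold at 200 mg/kg (1.78 ± 0.17, adjusted p = 1.75e-07).

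Cyp2b2 followed the same course. It had -2.12, -1.32 and -1.02 in vehicle animals on day 8 and -2.48, -1.71 and -1.31 on day 29. The high-dose animals had 0.24, 0.51 and 0.58 on day 8, and 0.54, 0.38, 0.45, 0.40 and 0.54 on day 29, and after 200 mg/kg -0.07, 0.00 and 0.37. Again all treated animals lay above all vehicle animals, and here every high-dose animal on day 29 also lay above every low-dose animal, by a narrow gap. The rise was 3.76-fold at 2000 mg/kg on day 8 (1.91 ± 0.15, adjusted p = 2.49e-10), 4.73-fold on day 29 (2.24 ± 0.16, adjusted p = 2.58e-11) and 3.58-fold at 200 mg/kg on day 29 (1.84 ± 0.15, adjusted p = 4.32e-09).

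The step from 200 to 2000 mg/kg on day 29 added 0.21 ± 0.18 to Cyp2b1 (95% interval -0.17 to 0.59, adjusted p = 0.554). For Cyp2b2 it added 0.40 ± 0.16 (0.08 to 0.73), with an adjusted p of 0.112 that fell to 0.00623 when only the groups compared entered the fit. The spread between animals differed: the SD of Cyp2b1 was 0.39 and 0.49 in the vehicle groups and 0.20, 0.24 and 0.08 in the groups given 200 mg/kg, 2000 mg/kg for 7 doses and 2000 mg/kg for 28 doses. For Cyp2b2 the SDs were 0.41 and 0.39 against 0.17, 0.12 and 0.08, in the same order, so vehicle animals differed more from each other than treated animals did for both genes. The difference between those SDs was not tested. Array probe sequences were not used here, so how much of the shared course of Cyp2b1 and Cyp2b2 comes from shared probes was not tested.

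The CYP3A genes moved in different directions. Of Cyp3a9 and Cyp3a18, members of the family that oxidises steroids and many drugs, both fell at 2000 mg/kg on day 8 and Cyp3a9 alone passed the test on day 29, while their relative Cyp3a23-3a1, the classical PXR-inducible CYP3A gene of the rat, rose on both days. The 250 bases before the start of each are shown because these genes moved in different directions; they come from RefSeq on build GRCr8, read 5′ to 3′ along the gene, with Cyp3a9 at chr12:21960161-21960410 on the - strand, Cyp3a18 at chr12:13994062-13994311 on the + strand and Cyp3a23-3a1 at chr12:14398804-14399053 on the - strand. Capitals mark AGGTCA or AGTTCA on either strand.
Cyp3a9: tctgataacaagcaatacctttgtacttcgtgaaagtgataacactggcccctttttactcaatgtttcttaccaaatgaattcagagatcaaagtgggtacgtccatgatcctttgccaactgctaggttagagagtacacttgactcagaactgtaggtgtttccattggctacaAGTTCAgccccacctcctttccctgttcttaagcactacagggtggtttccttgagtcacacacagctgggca
Cyp3a18: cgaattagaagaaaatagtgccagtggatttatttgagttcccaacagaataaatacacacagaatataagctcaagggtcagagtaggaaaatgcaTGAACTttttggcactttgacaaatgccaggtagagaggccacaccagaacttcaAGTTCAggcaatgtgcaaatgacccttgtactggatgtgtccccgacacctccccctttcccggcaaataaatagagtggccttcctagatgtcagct
Cyp3a23-3a1: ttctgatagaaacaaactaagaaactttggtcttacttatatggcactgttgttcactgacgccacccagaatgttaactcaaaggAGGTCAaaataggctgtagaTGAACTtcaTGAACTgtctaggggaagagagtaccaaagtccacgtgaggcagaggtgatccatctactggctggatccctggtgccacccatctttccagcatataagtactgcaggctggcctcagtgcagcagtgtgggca
AGGTCA was found on either strand in 14.1% and AGTTCA in 12.2% of 33469 windows of this length. The Cyp3a9 window holds 1 AGTTCA, the Cyp3a18 window 2 and the Cyp3a23-3a1 window 2 and 1 AGGTCA. The pair AGNTCANNNAGNTCA, in which N is any base and which can overlap the single elements, was found on either strand in 0.0598% of windows. Among the 9 genes and the 6 measured CYP2B and CYP3A relatives, that pair was found in the windows of Cyp3a23-3a1 and Cyp3a2. Pairs spaced as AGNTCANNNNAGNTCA (0.0538% of windows) or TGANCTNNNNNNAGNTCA (0.0329%), both strands, were found in none of these genes' windows. Elsewhere among these genes, Por, Cyp2b12, Cyp2b15 and Cyp2b21 had 1 AGGTCA each, Nr1i2 had 1 AGTTCA, and Cyp3a2 had 1 AGGTCA and 2 AGTTCA. A match describes letters and shows no binding.

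Cyp3a9 had values of -0.17, 0.31 and 1.17 in vehicle animals on day 8 and -0.08, 1.10 and 1.77 on day 29. Animals given 2000 mg/kg had -1.18, -0.97 and 0.16 on day 8, and -0.31, -0.22, -0.03, -0.85 and -0.11 on day 29, and after 200 mg/kg -0.38, 0.07 and 0.77. Treated animals were mostly the lower ones, but the ranges overlapped in every comparison, and the SD within vehicle groups reached 0.68, the largest of the 8 genes. Cyp3a9 fell to 0.452 times the vehicle level at 2000 mg/kg on day 8 (-1.15 ± 0.27, adjusted p = 0.00247) and to 0.419 times on day 29 (-1.25 ± 0.28, adjusted p = 0.00144). At 200 mg/kg the change was -0.76 ± 0.27 (adjusted p = 0.141). Without vehicle day 29 replicate 1, the animal that stood apart, the value at 200 mg/kg was -0.97 and passed (adjusted p = 0.033). That of 2000 mg/kg on day 29 was then -1.46 (adjusted p = 0.000167). The rounding of the deposited values fits stored signals of 8 or more in all animals for the other 7 genes but not for Cyp3a9.

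Cyp3a18 had a narrower spread. Its values were 0.02, 0.16 and 0.23 in vehicle animals on day 8 and -0.26, 0.07 and 0.12 on day 29. After 2000 mg/kg they were -0.78, -0.20 and -0.06 on day 8, and -0.18, -0.61, -0.06, -0.15 and -0.20 on day 29, and after 200 mg/kg -0.12, 0.18 and 0.33. On day 8 all treated animals lay below all vehicle animals, and on day 29 the lowest vehicle animal, again replicate 1, lay among the high-dose animals. Cyp3a18 fell by 0.43 ± 0.11 at 2000 mg/kg on day 8 (adjusted p = 0.00393). On day 29 the change was -0.26 ± 0.11 (adjusted p = 0.0988), and without replicate 1 of the vehicle group it was -0.31 and passed (adjusted p = 0.0454). At 200 mg/kg it was 0.12 ± 0.11 (adjusted p = 0.734). The high dose was 0.37 ± 0.11 lower than the low dose (adjusted p = 0.0284), a call lost in 5 of 11 fits without 1 animal, namely low-dose replicate 2, 4 or 6 or high-dose replicate 2 or 5 (adjusted p up to 0.113), and in the fit of only these groups (0.0561).

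Por hands electrons from NADPH to all microsomal P450 enzymes, including the 4 above. Its values were -0.79, -0.15 and 0.02 in vehicle animals on day 8 and -0.65, -0.49 and 0.00 on day 29. After 2000 mg/kg they were 0.25, 0.40 and 0.73 on day 8, and 0.25, 0.08, 0.08, 0.13 and 0.29 on day 29, and after 200 mg/kg -0.12, -0.02 and 0.09. Every high-dose animal lay above every vehicle animal of its day, and 1 vehicle animal of day 29 lay within the range of the low-dose group. Por rose 1.61-fold at 2000 mg/kg on day 8 (0.69 ± 0.11, adjusted p = 5.19e-05), 1.52-fold on day 29 (0.61 ± 0.12, adjusted p = 0.000369) and 1.33-fold at 200 mg/kg (0.42 ± 0.11, adjusted p = 0.0427). The call at 200 mg/kg was lost in 10 of 12 fits without 1 animal, all but those without vehicle replicate 3 or low-dose replicate 1. Without the animal that stood apart the adjusted p was 0.0707, and it reached 0.107 over the 10. The call was also lost after quantile normalization (0.107) and with array quality weights (0.0719). Between the doses Por differed by 0.19 ± 0.12 (adjusted p = 0.37), which passed in a fit of only these groups (0.0487).

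Whether the effect of 2000 mg/kg changed from 7 to 28 doses was tested directly, as the difference between the 2 effects. In limma none of the 8 genes passed (adjusted p from 0.484), 0 had an unadjusted p under 0.05, and 0.775% of all rows passed. The largest differences were 0.33 ± 0.22 for Cyp2b2, 0.31 ± 0.25 for Cyp2b1 and 0.27 ± 0.17 for Nr1i3, and the interval for Cyp2b1 ran from -0.21 to 0.83. In order of group means, both CYP2B genes ran from the vehicle group of day 29, through the vehicle group of day 8 and 200 mg/kg, to 2000 mg/kg on day 29 and on day 8. The neighbours in that order did not overlap between the vehicle group of day 8 and 200 mg/kg, and for Cyp2b2 between 200 and 2000 mg/kg on day 29. For the other 6 genes all neighbouring groups overlapped. Cyp2b1 was 0.59 ± 0.17 lower in vehicle animals of day 29 than in those of day 8 without passing the test (adjusted p = 0.0609), and it passed among rows with high stored values (0.0349), with array quality weights (0.0393), and without vehicle day 8 replicate 5 (0.0183) or vehicle day 29 replicate 2 (0.023) or 3 (0.018).

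Because both paralogs of a pair are measured in the same animal, the difference between the genes of a pair was taken within each animal and compared between groups with a two-sided exact permutation test, with adjustment over 10 tests. This uses differences of centred signals and not levels. Cyp2b2 minus Cyp2b1 was 0.34, 0.02, 0.11, 0.20 and 0.24 in the 5 animals given 2000 mg/kg to day 29 and -0.09 to 0.13 in the 6 given 200 mg/kg. Those ranges overlapped, and the difference of 0.19 did not pass (exact p = 0.026, adjusted 0.0649). In the other 4 comparisons of this pair the adjusted exact p ran from 0.216 to 0.677. With all animals no comparison of this pair passed, but 2 did without 1 animal. Without high-dose replicate 2 the difference between the doses was 0.23 (adjusted exact p = 0.0476), and without vehicle day 29 replicate 1 the difference at 2000 mg/kg on day 29 was 0.36 (adjusted exact p = 0.0433).

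Cyp3a18 minus Cyp3a9 was -0.93 ± 0.56 (SD, n = 6) in vehicle animals on day 29, -0.05 ± 0.35 (SD, n = 6) in the low-dose group and 0.06 ± 0.40 (SD, n = 5) in the high-dose group. On day 8 it was -0.23 ± 0.43 (SD, n = 6) in vehicle animals and 0.49 ± 0.42 (SD, n = 6) after 2000 mg/kg. The mean was higher in the treated groups, by 0.72 at 2000 mg/kg on day 8 (exact p = 0.0173), 1.00 on day 29 (exact p = 0.00866) and 0.88 at 200 mg/kg (exact p = 0.0108). After adjustment these exact permutation tests gave 0.0577, 0.0541 and 0.0541, just short of the threshold. The smallest p these designs allow is 0.00216 for 6 against 6 animals and 0.00433 for 6 against 5. The vehicle groups themselves differed by -0.70 from day 8 to day 29 (exact p = 0.0368, adjusted 0.0736), a shift of about the size of the treatment differences. Without vehicle day 29 replicate 1, the animal that stood apart, this shift was -0.85 and the differences at 2000 and 200 mg/kg on day 29 were 1.15 and 1.03, and all 3 passed (adjusted exact p = 0.0433 for each). Other single animals also decided calls by these exact permutation tests. Leaving out high-dose replicate 6 on day 8 gave 0.86 (adjusted p = 0.0361), leaving out high-dose replicate 2 on day 29 gave 1.11 (0.0476), leaving out low-dose replicate 6 gave 0.96 (0.0433) and leaving out vehicle day 8 replicate 2 gave a vehicle shift of -0.86 (0.0433).

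**Figure D3:**
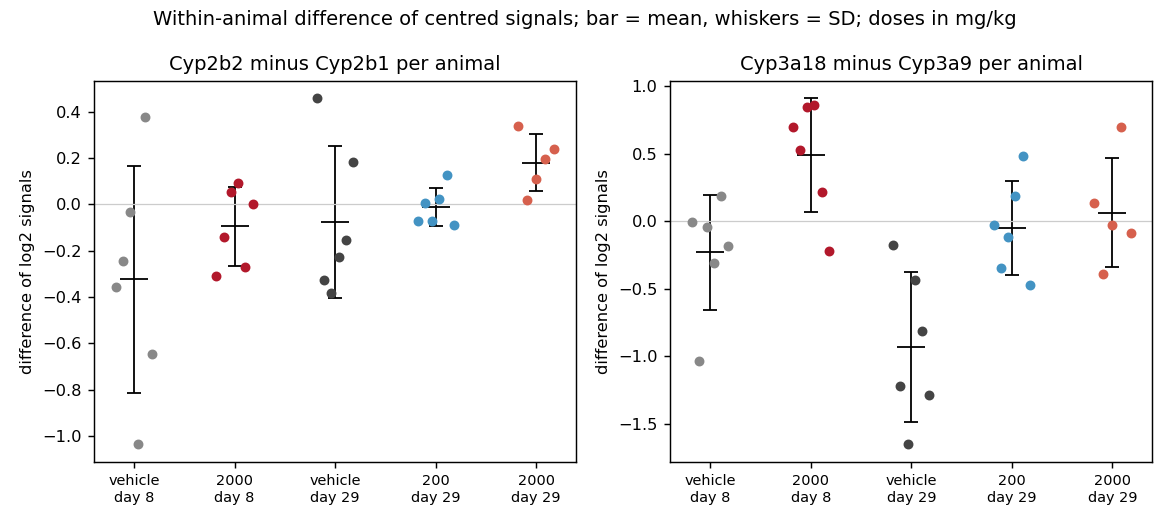
Difference between the centred log2 signals of 2 paralogs in each animal (points), Cyp2b2 minus Cyp2b1 on the left and Cyp3a18 minus Cyp3a9 on the right, by group; the bar is the mean and the whiskers the SD. Means of the Cyp2b pair run from -0.32 in vehicle animals of day 8 to 0.18 at 2000 mg/kg on day 29, with a wide spread in vehicle animals. The Cyp3a pair is lowest in vehicle animals of day 29.

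Among the other CYP2B and CYP3A genes of the table, 6 were measured. At 2000 mg/kg 4 rose and 2 fell on day 8, 4 rose and 0 fell on day 29, and at 200 mg/kg 1 rose and 0 fell. Their median changes were 0.26, 0.25 and 0.14, against -0.0049, 0.0025 and 0.0033 over all rows. Of all rows, 18.6%, 21.6% and 2.78% passed, in the same order. Cyp3a23-3a1 rose by 0.79 on day 8 and 0.71 on day 29 (limma adjusted p = 1.07e-08 and 1.53e-07), and its value at 200 mg/kg was 0.24 (adjusted p = 0.103). Cyp2b15 rose by 0.54, 0.46 and 0.26 in these 3 comparisons, and Cyp2b12 and Cyp2b21 rose by 0.22 to 0.30 at the high dose. The 2 that fell on day 8 were Cyp2b3 (-0.62) and Cyp3a2 (-0.23), the latter a CYP3A gene known as male-predominant in adult rats; they were named after their values were seen. Close relatives can share probes, which was not tested.

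Of 9 measured CYP2A and CYP2C genes, 1 rose and 3 fell at 2000 mg/kg on day 8. On day 29, 1 rose and 2 fell at 2000 mg/kg, and 1 rose and 1 fell at 200 mg/kg. The medians were -0.17, -0.06 and 0.01, and 18.6%, 21.6% and 2.78% of all rows passed, in the same order. Cyp2c6v1, a phenobarbital-inducible gene, rose by 0.39, 0.29 and 0.20. Cyp2c11, the male-specific testosterone hydroxylase, fell by 1.05 on day 8 and 0.68 on day 29, with 0.04 at 200 mg/kg (adjusted p = 2.37e-05, 0.00414 and 0.967). Cyp2c22 fell by 0.71 at 2000 mg/kg on day 29 and had -0.17 on day 8 (limma adjusted p = 1.95e-05 and 0.3). Its means at 2000 mg/kg were -0.271 on day 8 and -0.385 on day 29. Its vehicle mean was 0.42 higher on day 29 than on day 8 (adjusted p = 0.0291). Cyp2c12, known as the female-predominant gene of the family, was the 1 gene that fell at 200 mg/kg (-0.67, adjusted p = 0.0401); Cyp2a2 (-0.28) and Cyp2c13 (-0.29) were the others that fell on day 8, and these 3 were named after their values were seen.

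Of 21 measured targets of CAR and PXR outside the P450 families, 14 rose and 4 fell at 2000 mg/kg on day 8, 13 rose and 3 fell on day 29, and 10 rose and 0 fell at 200 mg/kg, with medians of 0.99, 1.12 and 0.41. Several are targets of other sensors too, NRF2 among them, so the list does not belong to these receptors alone. Of all rows, 18.6% and 21.6% passed at 2000 mg/kg on day 8 and day 29, and 2.78% at 200 mg/kg. Abcc3, which pumps conjugates out of the cell, rose by 3.11 at 200 mg/kg and 4.40 at 2000 mg/kg on day 29, a difference of 1.29 (adjusted p = 2.2e-07). Gsta3, a glutathione transferase, rose by 2.56 and 4.00, and the carboxylesterases Ces2c by 2.44 and 3.72 and Ces2a by 1.16 and 2.19. Akr1b7, an aldo-keto reductase, rose by 3.78 at 2000 mg/kg and had 0.20 at 200 mg/kg (adjusted p = 0.825), a difference of 3.58 between the doses (adjusted p = 1.95e-10). Among the 4 that fell on day 8 were Sult2a1 (-1.21), Thrsp (-0.825) and Slco1a4 (-0.36), named after their values were seen (limma adjusted p = 0.00112, 0.0119 and 0.03). At 2000 mg/kg on day 29 none of these passed (adjusted p = 0.378, 0.992 and 0.0649). Between the doses 11 of the 21 were higher and 5 lower at 2000 mg/kg, where 6.05% of all rows were higher and 3.84% lower. The median difference of the 21 was 0.33, beside 0.21 for Cyp2b1 and 0.40 for Cyp2b2. Neither CYP2B gene passed in the fit of all animals, but Cyp2b2 did in a fit of only these groups (limma adjusted p = 0.00623).

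**Figure D4:**
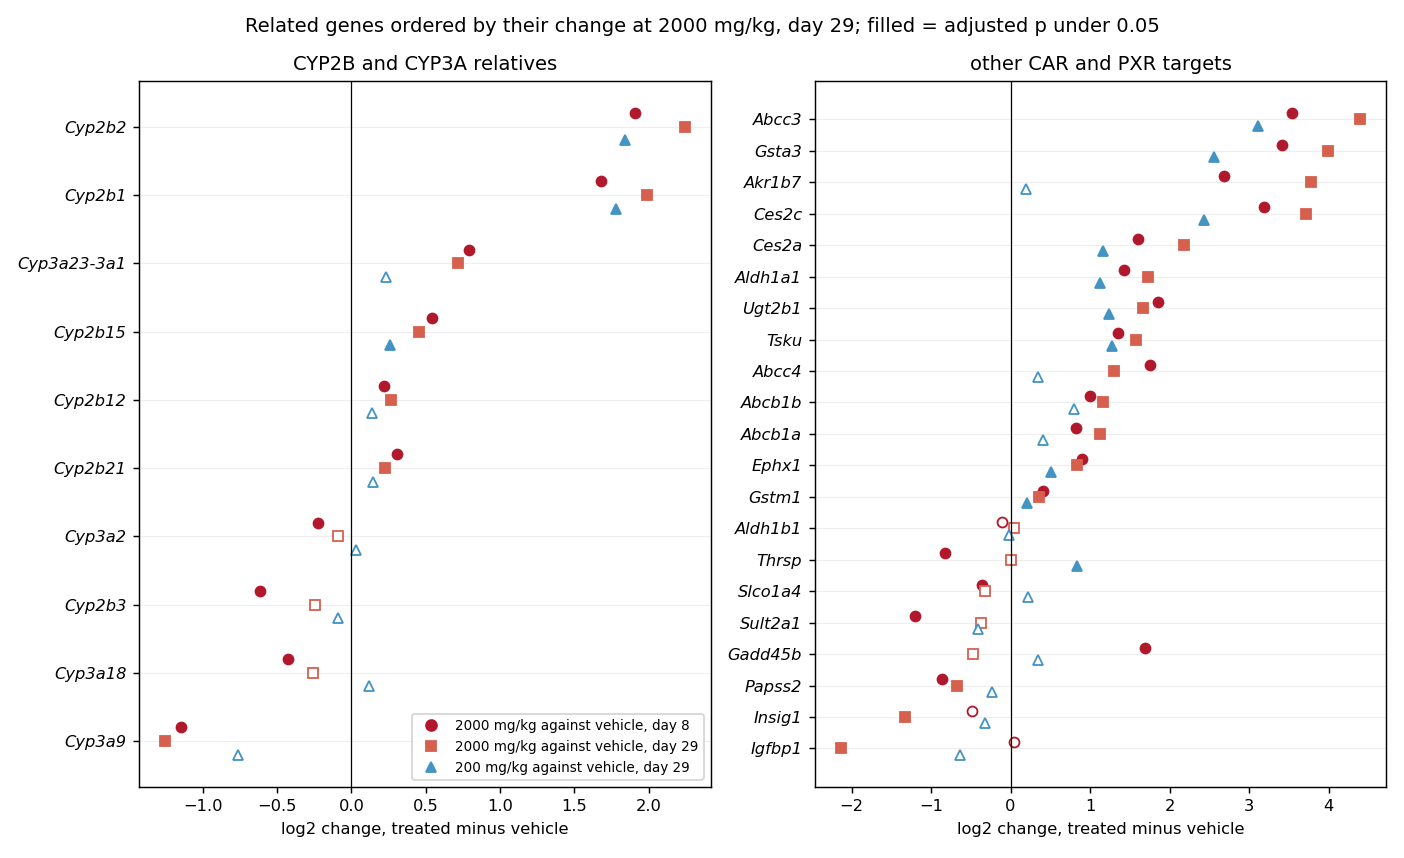
Log2 change against the vehicle group of the same day for the 10 measured CYP2B and CYP3A genes (left) and 21 other CAR and PXR targets (right), ordered by the change at 2000 mg/kg on day 29; filled symbols passed an adjusted p of 0.05. Cyp2b1 and Cyp2b2 show rises of 1.68 to 2.24 that lie close together at both doses, whereas Akr1b7 rose at 2000 mg/kg alone.

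Among 28 measured receptor partners and coregulators other than Nr1i2, Nr1i3 and Rxra, 5 rose and 6 fell at 2000 mg/kg on day 8, 6 rose and 6 fell on day 29, and 0 rose and 1 fell at 200 mg/kg. Their medians were -0.02, 0.03 and 0.01, near those of all rows, of which 18.6%, 21.6% and 2.78% passed, in the same order. Hsp90aa1, a chaperone that holds CAR in the cytoplasm, rose by 0.49 and 0.42 at the high dose and had -0.02 at the low dose. Ppp2r1a, a subunit of the phosphatase PP2A that acts on CAR, rose by 0.28 and 0.44 at the high dose. Egfr, the epidermal growth factor receptor, whose signalling is known to keep CAR inactive, fell by 0.52 and 0.49 at the high dose (adjusted p = 1e-05 and 3.94e-05) and had 0.08 at 200 mg/kg. Nr3c1, the glucocorticoid receptor, fell by 0.20 and 0.39, and Nr2f2, an orphan nuclear receptor, fell by 0.36 on day 29. The 1 gene that fell at 200 mg/kg was the coactivator Ncoa2 (-0.19), named after its value was seen.

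Of 14 measured genes of heme synthesis and transport, 4 rose and 2 fell at 2000 mg/kg on both days. At 200 mg/kg 0 rose and 1 fell. For this list and the next, 18.6% and 21.6% of all rows passed at 2000 mg/kg on day 8 and day 29, and 2.78% at 200 mg/kg. Alad, the enzyme after the Alas1 step, fell by 0.47 on day 8, 0.24 on day 29 and 0.25 at 200 mg/kg (adjusted p = 1.47e-07, 0.00181 and 0.00726). Clpx, a mitochondrial unfoldase that acts on the Alas1 protein, fell by 0.64 at 2000 mg/kg on day 29. Abcb6 rose by 0.57 and 0.59 at the high dose, Tspo by 0.72 and 0.51 and Slc25a39 by 0.21 and 0.37; all 3 encode membrane proteins of mitochondria or other organelles linked to porphyrin or glutathione transport. Fech, which inserts the iron, rose by 0.26 on day 29. Of the 7 electron donors and membrane partners other than Por, 2 rose at the high dose on each day. They were Pgrmc1, a heme-binding partner of P450 (0.39 and 0.49), and Cyb5b, a cytochrome b5 (0.38 and 0.47). Pgrmc1 had 2 rows, and these values are those of 1 of them. Pgrmc2 was the 1 that fell at 200 mg/kg (-0.38, adjusted p = 0.00156).

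The genes whose values ran most like each of the 8 over the 29 animals are given as a description, since these animals share groups and treatment. For Cyp2b1 they were Cyp2b2 (Pearson r = 0.953), Ces2c (0.94) and Abcc3 (0.927), and for Cyp2b2 they were Ces2c and Abcc3 (0.963 each) and Ugt2b1 (0.957). Cyp3a18 ran most like Cyp2c13 (0.907), Cyp2a2 (0.861) and Hsd11b1 (0.847), and Cyp3a9 most like Egf (0.829), Nhlrc1 (0.827) and Aox3 (0.825). For Por they were Ubqln2 (0.86), Epb41 (0.856) and Rpl19 (0.846). Rxra ran most like Mgat4b (0.937), Igfbp4 (0.926) and Pid1 (0.92), and Nr1i2 most like Itpr1 (0.849), Pkdcc (0.835) and Nrbf2 (0.83). The lowest values belonged to Nr1i3, with Ahr (0.754), Card10 (0.738) and Cpeb4 (0.707).

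Markers of liver cell types moved in some of the comparisons, and their part in the values above was not tested. Of all rows, 18.6% and 21.6% passed at 2000 mg/kg on day 8 and day 29, and 2.78% at 200 mg/kg. Of 8 measured hepatocyte markers, 0 rose and 4 fell at 2000 mg/kg on day 8, and 0 rose and 2 fell on day 29. Their median changes were -0.10 and -0.07, and the median at 200 mg/kg was -0.01. All 10 macrophage markers fell at 2000 mg/kg on day 8, when their mean per animal was 0.39 to 1.27 in vehicle animals and -0.64 to 0.10 in treated ones, and their median change on day 29 was -0.07 at 2000 mg/kg and 0.01 at 200 mg/kg. The same 10 were lower in vehicle animals of day 29 than in those of day 8, where 2.73% of all rows passed. Of 9 pericentral hepatocyte markers, the zone where CYP2B and CYP3A genes are known to be strongest, 1 rose and 7 fell at the high dose on day 8, 1 rose and 2 fell on day 29, and 2 fell at 200 mg/kg. Of 9 periportal markers 6 fell on day 8, 1 rose and 7 fell on day 29, and the median at 200 mg/kg was -0.04. Of 8 stellate cell markers 3 fell on day 8, 8 on day 29 and 1 at 200 mg/kg. Marker signals are centred too, so no marker can be called absent from the tissue.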

How the data were processed

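Per the labels' protocols, liver RNA was amplified and hybridised to Affymetrix whole-transcript arrays, 1 per animal. The authors deposited log2 values for 27342 rows, each centred on its median over 29 arrays. PLIER and MAS5 are named, per the submitters' processing notes, without versions or roles; for normalization between arrays, centring and any offset the method was not given in the sources used here, and an offset would shrink folds of dim genes. The rounding of the values fits numbers stored at 8 or above on every array for 7783 rows, among them 7 of the 8 genes described (not Cyp3a9). Array medians ran from -0.023 to 0.0287, and the highest correlation between 2 arrays was 0.73. Neither slide nor scan date was used.

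The platform annotation gave 1 symbol for 15097 rows, several for 323 and none for 11922. Groups were compared with limma 3.58.1 in R 4.3.3 (5 groups, 29 animals, 6 comparisons, two-sided, Benjamini-Hochberg over all rows, threshold 0.05); the step was tested on simulated data. Where labels say no more than biological replicate, p-values set group differences against the spread between these animals. In the main limma fits 1 estimate of that spread per row is shared by the 5 groups. Pairs of paralogs were compared with exact permutation tests (SciPy 1.17.1), and plots drawn with matplotlib 3.10.9. The members and gene lists were chosen with earlier results of these data known. Text names every member, up to 5 further genes of a list by size of change among those called at 2000 mg/kg on day 29, any heme or electron donor gene, and 3 genes of like pattern; others are said to be named after their values were seen. Alternatives were quantile normalization, subtraction of array medians, rows with 1 symbol, rows with stored values of 8 or more and only the compared groups. Others were limma's trend and robust options, array quality weights, a threshold of 0.01, a replicate block and leaving out each animal. The labels do not say that replicate numbers pair animals, and the main fits did not pair them. Promoter windows came from RefSeq (GRCr8), and all 9 genes matched.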

Additional observations from a re-analysis of the deposited data

Results flagged for a closer look

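In 5 of 40 combinations of gene and group, the lowest or highest animal was far from the others by Dixon's test, which chance gives in about 1 of 20 groups. These were the lowest vehicle animal on day 8 for Cyp2b1 (-1.86), the lowest animal given 2000 mg/kg on day 8 for Cyp2b2 (0.24), the lowest vehicle animal on day 29 for Cyp3a18 (-0.26), the lowest animal given 2000 mg/kg to day 29 for Cyp3a18 (-0.61) and the highest animal given 2000 mg/kg on day 8 for Por (0.73).

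The effect of 2000 mg/kg differed between day 8 and day 29 for 4 of the related genes and for none of the 8 genes described. These calls are from limma's test of the difference itself, which 0.775% of all rows passed. The difference was 0.86 for Abcc3 (adjusted p = 0.0307) and 0.58 for Ces2a (adjusted p = 0.00458). For both the treated means lay close together on day 8 and day 29 (1.46 and 1.37 for Abcc3, 1.03 and 1.10 for Ces2a), and the vehicle means were lower on day 29, by -0.95 for Abcc3 (adjusted p = 0.000259) and -0.51 for Ces2a (adjusted p = 0.000155). For Gadd45b, a stress-response gene, the difference was -2.16 (adjusted p = 0.0144), and for Igfbp1, an IGF-binding protein, it was -2.18 (adjusted p = 0.00458); both were named after their values were seen. The vehicle groups differed by 0.75 for either gene without passing (adjusted p = 0.155 and 0.099), and the treated means went from 0.95 to -0.46 for Gadd45b and from -0.14 to -1.58 for Igfbp1.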

How the results depend on the processing

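Directions and calls of Cyp2b1 and Cyp2b2 against vehicle held under all alternatives run, and the calls of the other members and pairs that alternatives other than the threshold of 0.01 ended or added stand beside their values above. The values that turned sign were near 0: Nr1i3 between the vehicle groups (0.008 after quantile normalization, 0.003 with array quality weights and -0.145 to 0.007 leaving out 1 animal), and, leaving out 1 animal, the day 8 to day 29 change of the 2000 mg/kg effect for Cyp3a9 (-0.315 to 0.077), Por (-0.143 to 0.021) and Rxra (-0.041 to 0.011) and the Cyp3a18 minus Cyp3a9 difference between doses (-0.043 to 0.229).

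A threshold of 0.01, stricter by construction, called 3244, 3754, 277, 1364, 28 and 77 rows for 2000 mg/kg on day 8 and day 29, 200 mg/kg, between doses, the change from day 8 to day 29 and between vehicle groups, against 5096, 5910, 761, 2704, 212 and 746. Rows with stored values of 8 or more, which are fewer, gave 3243 and 3549 for 2000 mg/kg on day 8 and day 29. Only the compared groups gave 340 at 200 mg/kg and 136 between vehicle groups. The change from day 8 to day 29 had 102 rows after quantile normalization and 673 with array weights, which gave 1773 between vehicle groups; the cause was not tested. Of the 8 genes, 1 was called between doses at 0.01, and between vehicle groups 0 at 0.01 and with only these groups, and 2 among rows with high stored values and with array weights. Leaving out 1 animal gave 76 to 563 rows for the change from day 8 to day 29, 254 to 2141 between vehicle groups, 436 to 1102 at 200 mg/kg and 1755 to 2813 between doses, and 1 to 3 of the 8 genes between doses and 1 to 2 between vehicle groups. It gave Cyp3a18 minus Cyp3a9 differences of 0.56 to 0.86 and 0.84 to 1.15 at 2000 mg/kg on day 8 and day 29, 0.74 to 1.03 at 200 mg/kg and -0.86 to -0.56 between vehicle groups, and Cyp2b2 minus Cyp2b1 differences of 0.19 to 0.36 at 2000 mg/kg on day 29 and 0.15 to 0.23 between doses.

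Deviations of same-numbered animals from their group means had correlations from -0.282 to 0.295. These were not set against those of differently numbered animals, so whether the number tracks anything shared was not tested. With the replicate block 5008, 5964, 780, 2736, 224 and 799 rows were called in the 6 comparisons, in the order above, and 7, 7, 4, 3, 0 and 1 of the 8 genes, as without it. Slide or scan as a block was not run, since neither is named in the table. Each of the 8 genes had 1 row. Of the related genes, Abcc4 had 3 rows, and Ppp2ca, Insig1, Tmem14c and Pgrmc1 had 2 each. For these only the row of lowest probe number was used, and the other rows were not run. Depth cannot be given for array signals, and dim genes are limited by an unknown offset.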
